A study of Mus musculus with 8 samples.

Results

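Imprinted genes are described here in a mouse fibroblast line, 3T3-L1, whose cells can be turned into adipocytes. The members are 36 genes named from general knowledge of mouse imprinting, among them Dlk1 and Igf2, and all 36 have a row among the 31252 genes of the deposited tables. Messenger RNA was sequenced in 8 libraries, 1 for each of 4 conditions at day 0 and day 2. Control cells carried an empty shRNA vector, and the other cells carried an shRNA against Maf1 (shMaf1), an shRNA against Brf1 (shBrf1) or were given ML-60218, which inhibits RNA polymerase III. The Maf1 protein represses that polymerase, and Brf1 is a part of its initiation factor TFIIIB. Day 0 cells were 2 days past confluence and had not been induced. Day 2 cells had spent 2 days in 10 µg/mL insulin, 2 µM Dex (dexamethasone, a glucocorticoid), 0.5 mM IBMX (which raises cAMP) and 25 µg/mL AsA (ascorbic acid). The labels do not say whether the shRNA cells were clones or pools, whether cells given ML-60218 also carried the empty vector, or at what dose and from when ML-60218 was given.

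At an imprinted gene, DNA methylation set down in the egg or the sperm leaves the copy from 1 parent active and the other silent. Such genes lie in clusters, where a protein-coding gene often sits beside a noncoding RNA made from the opposite parental copy. Many of them set growth in the embryo: Igf2 drives it and Igf2r restrains it, while Dlk1, better known in this field as Pref-1, holds preadipocytes back from differentiation. The parental copy that is named below for each gene is background. The libraries measure the sum over both copies and cannot tell them apart.

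With 1 library per group there is no replicate check and no test. Levels are given as CPM, the counts of a gene divided by the effective library size in megareads, after TMM scaling of the 8 libraries together. A gene is called past the size rule when both of these hold. Its log2 ratio of CPM + 0.5 is at least 1 in size, and the higher level is at least 1 CPM. At high levels this is a 2-fold difference, whereas at low levels the added 0.5 CPM asks for a wider fold. Ranges in parentheses after a fold are exact 95% counting intervals, which leave out all variation between cultures. The 3 perturbed libraries of a day share its control library, so their comparisons are not independent. In bulk RNA, fewer cells of a type and less RNA per cell cannot be told apart.

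Each library held 29035505 to 31759559 counts. Maf1 had 421 and 352 counts in the shMaf1 libraries of day 0 and day 2 and 1426 to 2028 in the others, 4.26-fold below control at day 0 (3.83 to 4.74) and 5.00-fold below at day 2 (4.45 to 5.62). Brf1 had 631 and 349 counts in the shBrf1 libraries and 669 to 1139 in the others, 1.73-fold below control at day 0 (1.57 to 1.91) and 2.06-fold below at day 2 (1.82 to 2.34). The shBrf1 library of day 2 stood apart in quality, with 7.8% of its reads on ribosomal RNA against 0.46 to 0.93% in the other libraries. Its deposited skewness, read here as a 3′ bias score, was 0.36. The score was 0.22 for ML-60218, 0.15 for control and 0.08 for shMaf1 on that day and 0.06 to 0.11 at day 0. The 4 adipocyte markers (Adipoq, Fabp4, Plin1, Cidec) summed to 0.342 to 6.02 CPM at day 0. At day 2 they summed to 135 CPM in control, 25.9 in shMaf1, 1135 in shBrf1 and 721 in ML-60218. The 6 fibroblast markers (Col1a1, Col1a2, Pdgfra, Pdgfrb, Dcn, Pparg) summed to 15415 to 19378 CPM at day 0 and to 7976, 11870, 4716 and 4398 CPM in the same order at day 2. Col1a1 and Col1a2 carry most of that sum. In control, Pdgfra (22132 and 40493 counts), Dcn (7109 and 19673) and Pparg (970 and 2652) were higher at day 2 while the sum was lower. Pparg is also the main adipogenic factor, and its highest level was 229 CPM, in shBrf1 at day 2. The part of quality and of the degree of differentiation in the results below was not tested. Markers of macrophages, endothelium, epithelium and neurons summed to at most 1.74 CPM each in every library, with Epcam at 0 counts in all 8 and Ptprc and Rbfox3 at no more than 1 count.

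Of the 36 genes, 26 averaged at least 1 CPM and are called measured. The 10 others had few or no counts in their rows. Meg3, Dio3 and Nnat were listed at 0 counts in all 8 libraries, which allows up to 3 counts each, or 0.0866 to 0.116 CPM. Meg3 is a maternally expressed noncoding RNA, Dio3 inactivates thyroid hormone and Nnat encodes a small membrane protein. The noncoding RNA Mirg and the cell-cycle inhibitor gene Cdkn1c had 0 to 6 counts. The growth-restraining gene Phlda2 had 0 to 1, the zinc finger gene Zim1 0 to 4, and Snrpn, which encodes a splicing protein, 0 to 3. Grb10, an adaptor that dampens insulin receptor signalling, had 5 to 40 counts, and Ppp1r9a, a phosphatase-targeting protein, 11 to 31. No direction is drawn for these 10. Rian, near Meg3, and Snurf, which shares a transcript with Snrpn, did have counts (4 to 103 and 469 to 764), and whether reads of Meg3 and Snrpn were assigned to other rows was not tested.

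Before induction few imprinted genes were past the size rule against control. In shMaf1 at day 0, 2 of 26 genes able to pass were higher (Plagl1 and Peg3) and 1 was lower (Peg10), where 2.6% of all genes able to pass were higher and 1.02% lower, 3.61% together. In shBrf1 at day 0, 1 of 26 was lower (Igf2) and 0 were higher, against 0.497% and 0.489% of all genes, 0.986% together. In ML-60218 at day 0, 0 of 26 were past the size rule in either direction, where 0.115% of all genes were, 0.041% higher and 0.0738% lower. For shMaf1, shBrf1 and ML-60218 the median log2 ratio of the 26 measured genes was 0.20, 0.01 and -0.05, beside 0.02, 0.02 and 0.01 over all 12137 measured genes.

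At day 2 those of the 36 genes that were past the size rule against control were all higher in shMaf1 and all lower in shBrf1 and ML-60218. Short of the rule, Peg10 was 1.91-fold higher in ML-60218 (1.87 to 1.95) and Kcnq1ot1 1.86-fold higher in shBrf1 (1.60 to 2.17). In shMaf1, 9 of 25 genes able to pass were higher (Dlk1, Rian, Rtl1, Igf2, H19, Plagl1, Peg3, Usp29 and Magel2) and 0 were lower, where 4.57% of all genes were higher and 3.48% lower, 8.05% together. In shBrf1, 6 of 23 were lower (Dlk1, Igf2, H19, Igf2r, Peg3 and Usp29) and 0 were higher, where 5.5% of all genes were lower and 3.11% higher, 8.61% together. In ML-60218, 4 of 23 were lower (Igf2, H19, Plagl1 and Peg3) and 0 were higher, where 3.11% of all genes were lower and 1.77% higher, 4.88% together. For shMaf1, shBrf1 and ML-60218 the median log2 ratio of the measured imprinted genes was 0.43, -0.20 and -0.16, and that of all measured genes lay within 0.01 of 0 each time. These one-sided counts stayed one-sided under each of the 3 other scalings, with 9 higher for shMaf1, 6 to 9 lower for shBrf1 and 4 to 5 lower for ML-60218. By spike-in scaling all genes leaned the same way, with 25.4% lower and 0.792% higher for shBrf1, 12.6% and 0.54% for ML-60218, and 2.36% lower and 5.89% higher for shMaf1.

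From day 0 to day 2, H19, Peg10 and Magel2 were higher in all 4 conditions. By spike-in scaling they were still higher, but Peg10 in control (0.99 log2) and shBrf1 (0.58) and H19 in shBrf1 (0.88) fell short of the size rule. Control cells had 3 of 27 imprinted genes higher (these 3) and 2 lower (Rian and Airn), where 9% of all genes were higher and 9.75% lower, 18.8% together. In shMaf1 cells 6 of 26 were higher (also Igf2, Mest and Peg3) and 2 lower (Slc22a18 and Impact), where 4.95% of all genes were higher and 5.57% lower, 10.5% together. In shBrf1 cells 5 of 25 were higher (also Kcnq1ot1 and Mest) and 8 lower (Dlk1, Rian, Rtl1, Slc22a18, Igf2r, Airn, Peg3 and Sgce), where 14.7% and 17.3% of all genes were, 32% together. In ML-60218 cells 3 of 24 were higher and 6 lower (Dlk1, Rian, Igf2, Airn, Plagl1 and Zrsr1), where 12.3% and 14.5% of all genes were, 26.7% together. The split depends on the scaling. By the reads of ERCC spike-in RNA, whose amount per library the labels do not give, the median of all measured genes became -0.61 log2 in control, -0.30 with shMaf1, -1.18 with shBrf1 and -1.22 with ML-60218. Control cells then had 2 imprinted genes higher and 11 lower, shMaf1 cells 5 and 2, shBrf1 cells 1 and 17, and ML-60218 cells 3 and 19. Of all genes, 28.6%, 11%, 58.2% and 62% were then lower and 3.76%, 2.8%, 3.09% and 2.6% higher. By library totals control cells had 3 higher and 4 lower, shMaf1 cells 6 and 2, and shBrf1 and ML-60218 cells 3 and 9 each. The medians of all genes were then -0.13, -0.09, -0.23 and -0.24 log2. Of all genes, 13.1%, 6.98%, 22.2% and 20.5% were lower and 6.65%, 3.93%, 10.6% and 8.03% higher in the same order. Against control, spike-in scaling gave a median of all genes of -0.16 for shMaf1 and -0.11 for shBrf1 at day 0, and of 0.15 for shMaf1, -0.65 for shBrf1 and -0.58 for ML-60218 at day 2. By library totals it was -0.11 for shBrf1 at day 2.

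**Figure D1:**
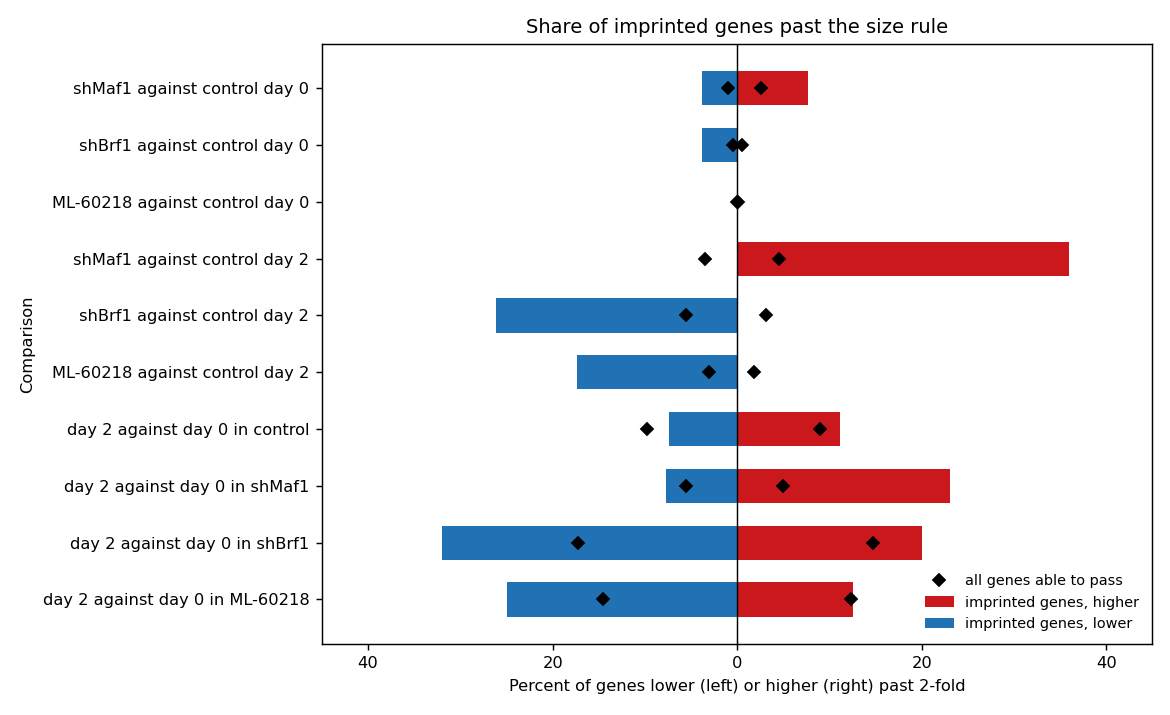
Percent of imprinted genes past the size rule in each of the 10 comparisons (bars; higher to the right, lower to the left; horizontal axis in percent of the genes able to pass), with the percent over all genes as diamonds. Against control at day 2 the bar lies to the right for shMaf1 (9 of 25) and to the left for shBrf1 (6 of 23) and ML-60218 (4 of 23), each past its diamond.

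**Figure D2:**
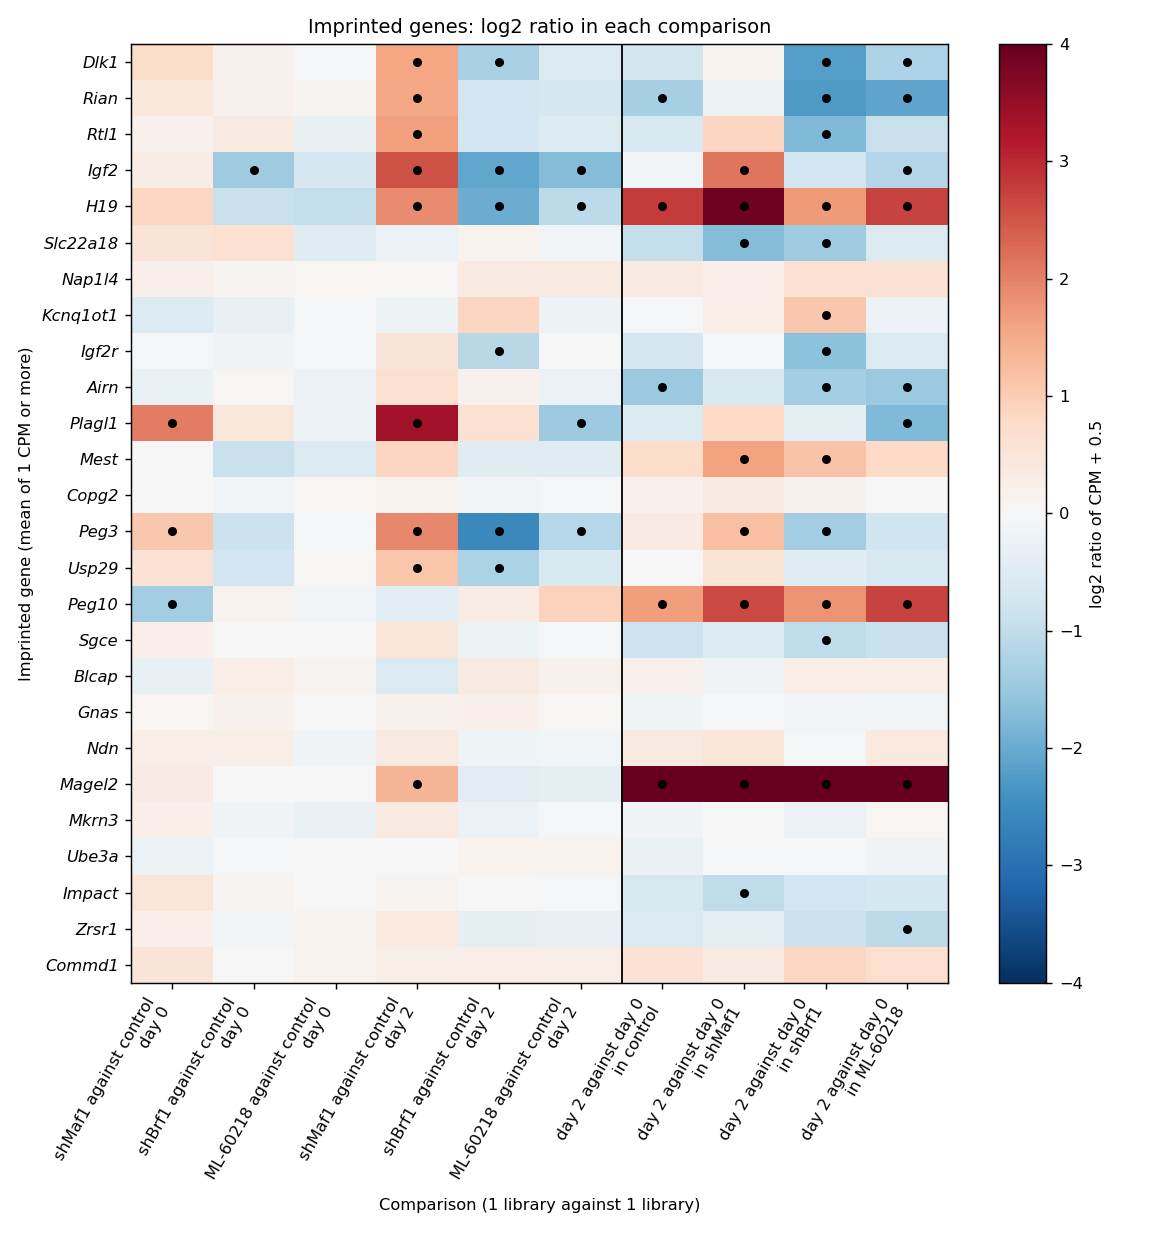
Log2 ratio of CPM + 0.5 (colour, clipped at 4) for the 26 measured imprinted genes (rows) in the 10 comparisons (columns; 1 library against 1 library), with black dots on those past the size rule. Dlk1, Rian, Igf2, H19, Plagl1, Peg3, Peg10 and Magel2 hold 4 to 7 dots each, and 8 of the 26 rows hold none.

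Dlk1 heads a cluster on chromosome 12 (mm10, 109452822 to 109463336) and encodes a transmembrane protein whose shed outer part inhibits adipogenesis, acting in part through Sox9. The paternal copy is the active one. At day 0 it stood at 1221 CPM in control, 2014 in shMaf1, 1363 with shBrf1 and 1174 with ML-60218. At day 2 it stood at 742 CPM in control, 2215 in shMaf1, 299 in shBrf1 and 498 in ML-60218. The shMaf1 library was the highest on both days, and its day 2 level was the highest of the 8. Against control at day 2, Dlk1 was 2.99-fold higher in shMaf1 (2.94 to 3.03), 2.48-fold lower in shBrf1 (2.42 to 2.55) and 1.49-fold lower in ML-60218 (1.46 to 1.52), the last within the size rule. From day 0 to day 2 it was 1.65-fold lower in control (1.62 to 1.67), 4.56-fold lower in shBrf1 (4.46 to 4.68) and 2.36-fold lower in ML-60218 (2.31 to 2.41). In shMaf1 it was 1.10-fold higher (1.09 to 1.11), and by spike-in scaling it was slightly lower there (-0.20 log2). That scaling also put the control fall (-1.39 log2) and the ML-60218 difference from control at day 2 (-1.18) past the 2-fold limit.

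The start of Dlk1 is shown because the gene was past the size rule in 4 comparisons, up in shMaf1 and down in shBrf1. The window is chr12:109452573-109452872, plus strand, from RefSeq (GRCm38.p6), 250 bases before to 50 after the start, with capitals on the CG pairs, where DNA methylation is placed.
Dlk1: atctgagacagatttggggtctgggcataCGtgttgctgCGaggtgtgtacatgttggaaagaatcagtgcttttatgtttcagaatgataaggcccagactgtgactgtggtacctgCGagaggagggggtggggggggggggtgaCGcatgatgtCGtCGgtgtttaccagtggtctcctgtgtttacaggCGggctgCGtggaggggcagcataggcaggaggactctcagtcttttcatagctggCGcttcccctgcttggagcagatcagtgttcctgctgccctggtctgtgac
This window holds 9 CG pairs, and 45.8% of the 32851 promoter windows of the table hold as many or more (median 7). RefSeq windows were found for 29 of the 36 genes.

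The neighbours of Dlk1 that could be measured were low. Rian, a maternally expressed host of small nucleolar RNAs, was at 2.28 CPM in control, 3.21 in shMaf1, 2.65 with shBrf1 and 2.48 with ML-60218 at day 0. At day 2 it was at 0.607, 2.75, 0.154 and 0.191 CPM, on 18, 81, 4 and 5 counts. The day 2 level was below the day 0 level in 3 conditions and near it in shMaf1, where it was 4.53-fold above control at day 2 (2.70 to 8.03). The day 2 library was 3.76-fold below day 0 in control (2.23 to 6.66), 17.2-fold below in shBrf1 (6.47 to 64.4) and 13.02-fold below in ML-60218 (5.36 to 41.1). Rtl1, a paternally expressed gene derived from a retrotransposon and needed in the placenta, was at 1.33, 1.56, 1.87 and 0.987 CPM at day 0 and at 0.674, 3.19, 0.193 and 0.305 CPM at day 2, in the same order. Its day 2 level in shMaf1 was 4.74-fold above control (2.90 to 8.10). In shBrf1 it was 9.68-fold lower at day 2 than at day 0 (3.93 to 30.9). The annotated spans of Rian and Rtl1 lie 3613 bases apart. Dlk1 and Rtl1 are made from the paternal copy and Rian from the maternal copy, and among the day 2 libraries all 3 were highest in shMaf1. Dlk1 was lowest in shBrf1. Rian (4 and 5 counts) and Rtl1 (5 and 8 counts) were low in both shBrf1 and ML-60218, and their intervals overlap, so these libraries cannot be ordered.

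Igf2, the insulin-like growth factor of fetal growth, lies on chromosome 7 (mm10, 142650767 to 142661035) and is paternally expressed. It was at 93.3 CPM in control, 114 in shMaf1, 34.4 with shBrf1 and 57.9 with ML-60218 at day 0. Its day 2 levels were 85.8, 502, 20.1 and 25.6 CPM. The day 2 shMaf1 library was far above the rest and the day 2 shBrf1 library was the lowest of the 8. Against control, Igf2 was 1.22-fold higher in shMaf1 at day 0 (1.17 to 1.28) and 5.85-fold higher at day 2 (5.61 to 6.10). In shBrf1 it was lower on both days, 2.71-fold at day 0 (2.53 to 2.90) and 4.27-fold at day 2 (3.89 to 4.70), and in ML-60218 it was 1.61-fold lower at day 0 (1.52 to 1.70) and 3.36-fold lower at day 2 (3.08 to 3.66). It was the 1 imprinted gene past the size rule against control in shBrf1 at day 0. Induction left control cells 1.09-fold lower (1.03 to 1.15), shBrf1 cells 1.71-fold lower (1.54 to 1.90) and ML-60218 cells 2.27-fold lower (2.07 to 2.48). In shMaf1 cells Igf2 was 4.40-fold higher at day 2 (4.24 to 4.56). The control difference depends on the scaling, at -0.12 log2 by TMM, -0.30 by library totals and -0.79 by spike-in scaling.

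H19, the maternally expressed noncoding RNA of the same cluster, lies 72620 bases from Igf2. It is the host of a microRNA and shares its enhancers with Igf2. It was at 1.10 CPM in control, 2.30 in shMaf1, 0.361 with shBrf1 and 0.329 with ML-60218 at day 0, and at 10.6, 41.2, 2.31 and 4.85 CPM at day 2. Every condition was higher at day 2, by 9.69-fold in control (6.90 to 13.9), 17.9-fold in shMaf1 (14.1 to 22.9), 6.41-fold in shBrf1 (3.41 to 13.1) and 14.7-fold in ML-60218 (7.96 to 30.2). At day 2 the conditions stood in the same order as for Igf2. H19 was 3.88-fold above control in shMaf1 (3.42 to 4.40), 4.59-fold below in shBrf1 (3.48 to 6.16) and 2.19-fold below in ML-60218 (1.78 to 2.72), the last short of the size rule with a pseudocount of 1 CPM (-0.99 log2). Because H19 was higher at day 2 in every condition and Igf2 only in shMaf1, the count of Igf2 per count of H19 went from 49.6 to 176 at day 0 to 5.28 to 12.2 at day 2.

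Igf2r and Airn form the cluster on chromosome 17. Igf2r encodes the receptor that takes IGF2 into lysosomes, and it is maternally expressed. It was at 779, 736, 715 and 744 CPM at day 0 in control, shMaf1, shBrf1 and ML-60218, and at 491, 706, 227 and 496 CPM at day 2. The day 0 levels were within a narrow range, and at day 2 shBrf1 was the lowest and shMaf1 the highest. In shBrf1 it was 2.16-fold below control at day 2 (2.09 to 2.22) and 3.14-fold below its own day 0 (3.05 to 3.23). Airn, the paternal noncoding RNA that silences Igf2r in cis, was at 16.4, 13.6, 17.0 and 13.7 CPM at day 0 and 5.56, 8.87, 6.36 and 4.62 CPM at day 2. It was lower at day 2 in every condition, and past the size rule in control (2.95-fold, 2.48 to 3.53), shBrf1 (2.67-fold, 2.24 to 3.20) and ML-60218 (2.97-fold, 2.43 to 3.67). The pair overlaps by 28397 bases on opposite strands, and whether the counting used strand is not given in the sources used here. Counts of Igf2r per count of Airn were 42.0 to 54.2 at day 0, 79.6 to 108 at day 2 in 3 conditions and 35.8 at day 2 in shBrf1.

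**Figure D3:**
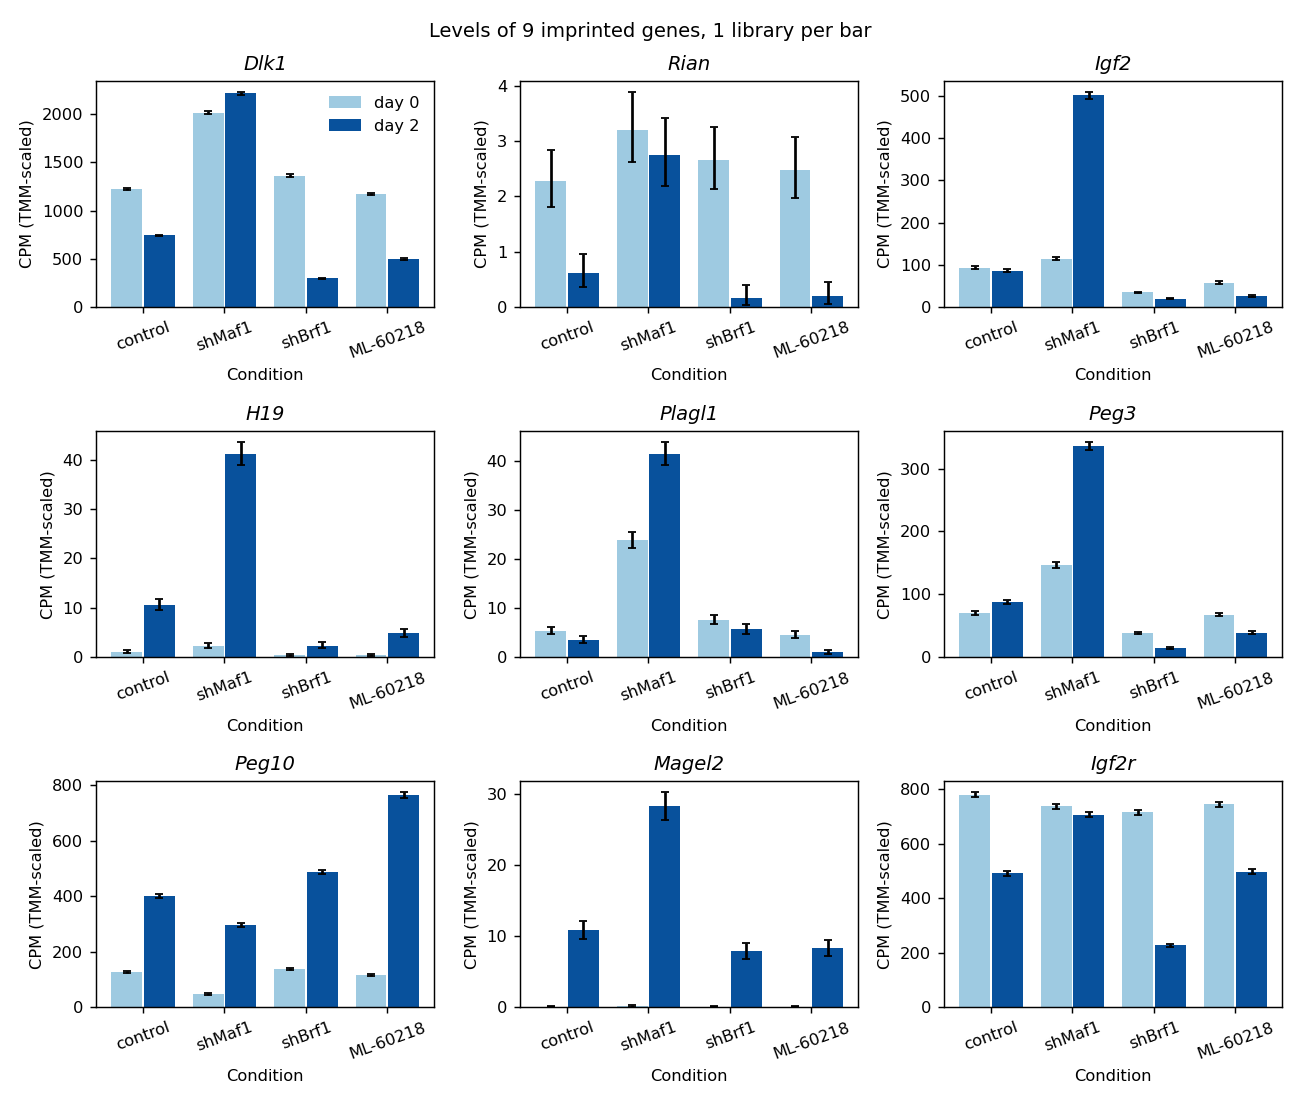
Level in CPM (vertical axes from 0) of 9 imprinted genes in the 8 libraries, by condition, with day 0 in light and day 2 in dark bars; error bars are exact 95% Poisson counting intervals. The dark shMaf1 bar is the highest for Dlk1, Igf2, H19, Plagl1, Peg3 and Magel2, whereas Peg10 peaks in ML-60218 at day 2 with 764 CPM.

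Plagl1, also known as Zac1, encodes a zinc finger transcription factor that slows the cell cycle and binds at other imprinted genes, H19 among them. It lies on chromosome 10 (mm10, 13060503 to 13131695) and is paternally expressed. It was at 5.40 CPM in control, 23.8 in shMaf1, 7.64 with shBrf1 and 4.55 with ML-60218 at day 0. The day 2 levels were 3.57, 41.4, 5.67 and 0.992 CPM. Both shMaf1 libraries were above the other 6. Against control it was 4.41-fold higher in shMaf1 at day 0 (3.75 to 5.20) and 11.6-fold higher at day 2 (9.49 to 14.3), the widest log2 ratio of any imprinted gene against control. In ML-60218 it was 3.60-fold below control at day 2 (2.33 to 5.77) and 4.58-fold below its own day 0 (3.01 to 7.24), on 26 counts. In shBrf1 at day 2 Plagl1 was 0.60 log2 above control, and -0.02 log2 by spike-in scaling, whereas Igf2, H19 and Peg3 were lower by either scaling.

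The Plagl1 window is shown because it holds a CG-rich start and because the gene had the widest difference against control. It lies at chr10:13090582-13090881, plus strand (RefSeq, GRCm38.p6), with CG pairs in capitals.
Plagl1: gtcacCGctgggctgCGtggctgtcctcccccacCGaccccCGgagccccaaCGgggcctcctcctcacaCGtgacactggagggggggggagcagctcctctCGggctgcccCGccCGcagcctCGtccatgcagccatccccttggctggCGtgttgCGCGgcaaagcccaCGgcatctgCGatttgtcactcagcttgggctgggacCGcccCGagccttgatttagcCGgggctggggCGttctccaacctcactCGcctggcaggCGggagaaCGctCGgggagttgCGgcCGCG
It holds 26 CG pairs, and 16.9% of all windows hold as many or more.

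Peg3 and Usp29 are a pair of paternally expressed genes on chromosome 7 that are read in opposite directions from starts close together, their spans being 320 bases apart. Peg3 encodes a zinc finger protein and Usp29 a deubiquitinase. Peg3 was at 69.8 CPM in control, 147 in shMaf1, 38.4 with shBrf1 and 67.8 with ML-60218 at day 0, and at 87.8, 336, 14.4 and 39.1 CPM at day 2. The shMaf1 libraries were the highest on both days and the shBrf1 libraries the lowest. Against control Peg3 was 2.10-fold higher in shMaf1 at day 0 (2.00 to 2.20) and 3.82-fold higher at day 2 (3.66 to 3.99). At day 2 it was 6.09-fold lower in shBrf1 (5.46 to 6.80) and 2.24-fold lower in ML-60218 (2.09 to 2.41). It was 2.29-fold higher at day 2 than at day 0 in shMaf1 (2.21 to 2.37) and 2.67-fold lower in shBrf1 (2.37 to 3.00), the first short of the limit by spike-in scaling (0.86 log2). The day 0 difference in shMaf1 lay close to the 2-fold limit, and by spike-in scaling (0.89 log2) it fell short of it. In control cells Peg3 was 0.33 log2 higher at day 2, which turned to -0.34 by spike-in scaling.

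Usp29 was far scarcer, at 1.33, 2.21, 0.572 and 1.41 CPM at day 0 and 1.35, 3.50, 0.270 and 0.725 CPM at day 2 in control, shMaf1, shBrf1 and ML-60218. The order of the conditions at day 2 was that of Peg3. Usp29 was 2.59-fold above control in shMaf1 (1.78 to 3.84) and 5.00-fold below in shBrf1 (2.22 to 13.2), on 103, 40 and 7 counts. With a pseudocount of 1 CPM both differences (0.94 and -0.89 log2) fell short of the size rule. The count of Peg3 per count of Usp29 was 48.2 to 67.2 in 7 libraries and 95.9 (79.0 to 118) in shMaf1 at day 2, and the intervals of most libraries overlapped.

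The window at the start of Peg3 is shown because it also covers the RefSeq start of Usp29. It lies at chr7:6730370-6730669, minus strand, and shares 263 bases with the Usp29 window read from the other strand (RefSeq, GRCm38.p6). The deposited span of Usp29, used for the gap above, begins at 6730740, outside the window. Capitals mark CG pairs.
Peg3: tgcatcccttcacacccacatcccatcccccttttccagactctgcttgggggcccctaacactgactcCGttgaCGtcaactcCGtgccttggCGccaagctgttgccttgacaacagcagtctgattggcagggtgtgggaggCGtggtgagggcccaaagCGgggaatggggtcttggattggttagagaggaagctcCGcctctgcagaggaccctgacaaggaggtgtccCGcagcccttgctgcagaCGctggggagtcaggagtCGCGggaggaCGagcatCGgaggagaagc
It holds 13 CG pairs, which 37.9% of all windows reach. It also holds the cAMP response element TGACGTCA, a palindrome found on both strands, which 1.79% of all windows hold. Among the imprinted genes with windows, it was found in those of Peg3, Usp29 and Meg3. A match describes the letters and does not show that a factor binds.

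Peg10 and Sgce form a similar head-to-head pair of paternally expressed genes on chromosome 6, with spans 100 bases apart, but they did not move together. Peg10 derives from a retrotransposon and is needed for the placenta, and Sgce encodes a sarcoglycan of the cell membrane. Peg10 was at 126 CPM in control, 47.2 in shMaf1, 139 with shBrf1 and 116 with ML-60218 at day 0. After induction it was at 400.1, 296, 487 and 764 CPM. On this TMM scale every day 2 library was above every day 0 library, and shMaf1 was the lowest on both days. By spike-in scaling shBrf1 was -0.40 log2 from control at day 2, where TMM gave 0.28. It was 3.18-fold higher at day 2 in control (3.07 to 3.29), 6.26-fold in shMaf1 (5.93 to 6.62), 3.51-fold in shBrf1 (3.39 to 3.63) and 6.58-fold in ML-60218 (6.36 to 6.81). In shMaf1 at day 0 it was 2.66-fold below control (2.51 to 2.83), the reverse of Plagl1 and Peg3 in that comparison. Sgce was at 94.2, 107, 92.3 and 93.2 CPM at day 0 and at 52.3, 72.9, 45.2 and 50.5 CPM at day 2. It was lower at day 2 in every condition and past the size rule only in shBrf1, where it was 2.04-fold lower (1.91 to 2.19). The count of Peg10 per count of Sgce ran from 0.440 in shMaf1 to 1.502 in shBrf1 at day 0 and from 4.06 in shMaf1 to 15.1 in ML-60218 at day 2.

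**Figure D4:**
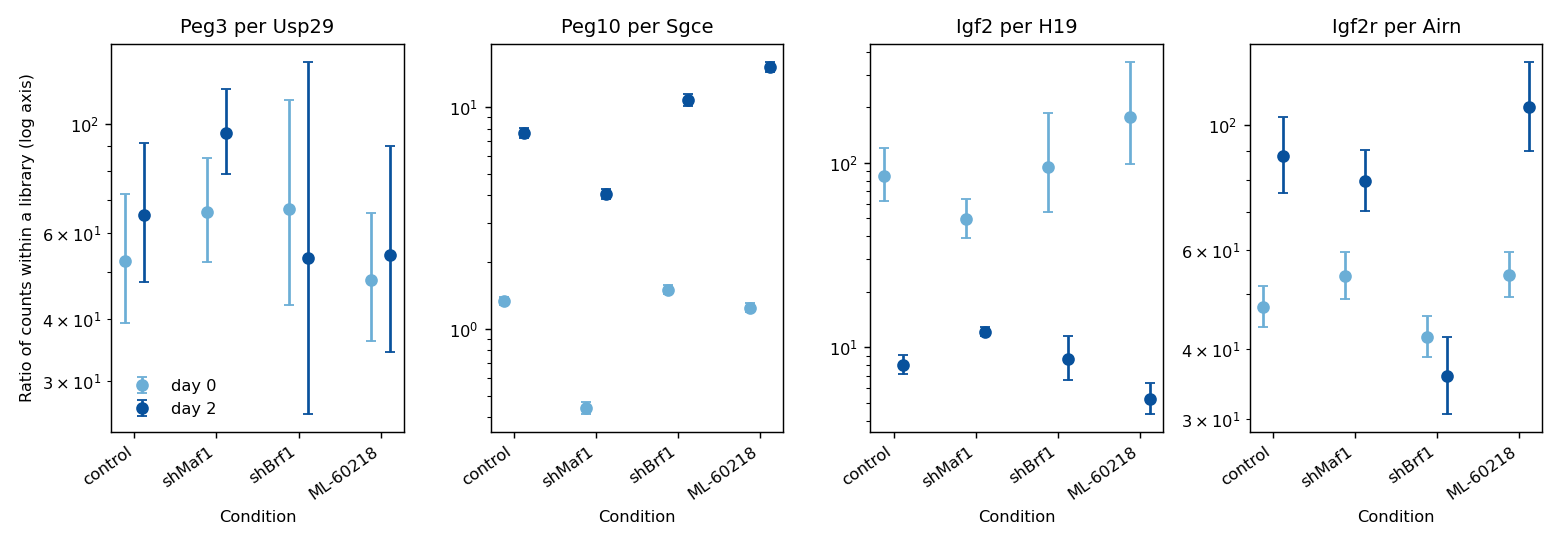
Ratio of the counts of neighbouring imprinted genes within each library (log axes, not corrected for gene length), by condition, with day 0 light and day 2 dark; bars are exact 95% counting intervals. Peg3 per Usp29 ran from 48.2 to 95.9, whereas Peg10 per Sgce was higher and Igf2 per H19 lower at day 2 in all 4 conditions.

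The genes of the Prader-Willi domain on chromosome 7 were steady with the exception of Magel2, an intronless gene whose protein acts with ubiquitin ligases in endosomal transport. Magel2 had 0, 4, 0 and 0 counts in control, shMaf1, shBrf1 and ML-60218 at day 0. At day 2 it had 321, 833, 205 and 217 counts, or 10.8, 28.3, 7.90 and 8.28 CPM. The 2 days did not overlap, and shMaf1 was the highest on both. Against a floor of 3 counts in the day 0 library, the day 2 level was at least 125-fold higher in control, at least 87.5-fold higher in shBrf1 and at least 92.2-fold higher in ML-60218. The exact 95% intervals of these ratios begin lower, at 101 in control, 70.6 in shBrf1 and 74.4 in ML-60218. In shMaf1 the ratio was 227 (88.4 to 836), on 4 day 0 counts. These values are by TMM scaling, and all 4 conditions stayed past the size rule by spike-in scaling. At day 2 shMaf1 was 2.61-fold above control (2.30 to 2.98).

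The Magel2 window is shown because this gene went from at most 4 counts to at least 205 within 2 days of induction. It lies at chr7:62376729-62377028, plus strand (RefSeq, GRCm38.p6), with CG pairs in capitals.
Magel2: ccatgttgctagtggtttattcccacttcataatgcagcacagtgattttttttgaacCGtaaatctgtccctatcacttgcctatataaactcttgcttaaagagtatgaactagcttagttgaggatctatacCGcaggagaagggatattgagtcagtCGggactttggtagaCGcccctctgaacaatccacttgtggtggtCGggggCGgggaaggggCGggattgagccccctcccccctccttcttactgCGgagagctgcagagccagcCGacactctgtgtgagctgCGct
It holds 10 CG pairs, as many as 43.5% of all windows reach, and the letters TATAAA, which 13.6% of all windows hold on either strand. The match lies in the early part of the window, well before the gene start, and does not show that a factor binds.

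Its neighbours did not share that change. Ndn, which encodes the growth-restraining protein necdin and ends 27050 bases from Magel2, ranged from 47.6 to 85.7 CPM over the 8 libraries. Mkrn3, which encodes a ubiquitin ligase that delays puberty, ranged from 1.62 to 2.68 CPM. Ube3a, the ubiquitin ligase gene lost in Angelman syndrome and imprinted in neurons, ranged from 48.3 to 59.3 CPM. None of these 3 was past the size rule in any of the 10 comparisons by TMM scaling.

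In the domain under the noncoding RNA Kcnq1ot1 on chromosome 7, no measured gene was past the size rule against control, and Kcnq1ot1 and Slc22a18 were past it between the days. Kcnq1ot1, which silences its neighbours on the paternal copy, was at 9.67, 6.44, 7.82 and 9.15 CPM at day 0 and at 9.07, 7.81, 16.9 and 7.78 CPM at day 2. The day 2 shBrf1 library alone stood above 10 CPM, 2.16-fold above its day 0 (1.85 to 2.53), which by library totals was 0.84 log2, short of the limit, and by spike-in scaling turned to -0.11 log2. Slc22a18, a maternally expressed transporter gene, was at 1.59, 2.49, 2.71 and 0.987 CPM at day 0 and at 0.573, 0.408, 0.694 and 0.496 CPM at day 2. It was lower at day 2 in every condition, by 6.11-fold in shMaf1 (3.31 to 12.3) and 3.90-fold in shBrf1 (2.33 to 6.88). Nap1l4, a histone chaperone gene at the edge of the domain, ranged from 85.6 to 141 CPM and passed in no comparison by TMM scaling.

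Mest, a paternally expressed gene of the hydrolase family that is linked to fat cell size, was at 1.70, 1.71, 0.692 and 1.02 CPM at day 0 and at 3.20, 6.18, 2.12 and 2.14 CPM at day 2. It was higher at day 2 in every condition, except that ML-60218 turned to -0.17 log2 by spike-in scaling. It was past the size rule in shMaf1 (3.61-fold, 2.66 to 4.98) and shBrf1 (3.06-fold, 1.85 to 5.22). The shBrf1 difference fell short of it by spike-in scaling (0.26 log2), by library totals (0.97) and with a pseudocount of 1 CPM (0.88). Its neighbour Copg2, a coatomer subunit gene that overlaps it by 914 bases, ranged from 91.2 to 122 CPM and passed in no comparison by TMM scaling. By spike-in scaling it was lower at day 2 in shBrf1 (-1.04 log2).

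The other imprinted genes passed the size rule in at most 1 comparison each by TMM scaling. Like the median of all genes, they were lower at day 2 by spike-in scaling in several comparisons. Gnas, the gene of the stimulatory G protein alpha subunit, ranged from 719 to 907 CPM. Blcap, which holds Nnat within its span, ranged from 35.3 to 68.8 CPM, and Commd1, a copper and NF-kB regulator, from 30.7 to 55.2 CPM. These 3 passed in no comparison by TMM scaling. Zrsr1, a splicing-factor gene inside an intron of Commd1, ranged from 13.7 to 31.1 CPM and was 2.11-fold lower at day 2 in ML-60218 (1.87 to 2.39). Impact, a translational regulator that lowers GCN2 activity, was at 126, 177, 136 and 127 CPM at day 0 and at 80.8, 87.0, 79.7 and 78.1 CPM at day 2. It was lower at day 2 in all 4 conditions and, in shMaf1, 2.03-fold lower (1.94 to 2.13). In all, 18 of the 36 genes passed in at least 1 of the 10 comparisons and 11 passed in at least 1 of the 6 against control, and 8 of the 26 measured genes passed in none. The share of all genes that passed in at least 1 comparison was not computed. Single comparisons passed from 0.115% to 32% of all genes able to pass, so these counts cannot be read as unusual.

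Sorted by the parental copy that general knowledge names as active in any tissue, 16 of the measured genes are paternal and 10 maternal. Ube3a, among the maternal genes, is imprinted in neurons, and which copies are active in these cells was not measured. The medians below therefore do not compare copies known to be active here. At day 2 in shMaf1, 7 paternal genes and 2 maternal genes were higher, with median log2 ratios of 0.74 and 0.15. In shBrf1, 4 paternal and 2 maternal genes were lower, with medians of -0.30 and 0.15, and in ML-60218 3 and 1 were lower, with medians of -0.35 and 0.03. Genes on both sides moved, and at the Igf2 and Dlk1 clusters genes of opposite parental copies moved the same way against control at day 2. Between the days, Igf2 was lower and H19 higher in control (-0.12 and 2.80 log2), shBrf1 (-0.76 and 1.71) and ML-60218 (-1.16 and 2.69). Of all genes able to pass, 4.57% were higher in shMaf1, 5.5% lower in shBrf1 and 3.11% lower in ML-60218 at day 2. No test of the difference between the sides was made.

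Other gene groups were described beside the 36. A list of 36 further imprinted genes had 20 measured. In it, 2 were higher and 0 lower in shMaf1 at day 0, 2 and 0 at day 2, 2 and 2 in shBrf1 at day 2, and none were past in the other 3 comparisons against control, with medians between -0.14 and 0.05 log2. The shares over all genes are those given above for the same comparisons, 3.61% past at day 0 and 8.05% at day 2 for shMaf1 and 8.61% for shBrf1 at day 2. Slc38a4, a paternally expressed amino acid transporter gene, was at 36.6 CPM in control at day 2 and at 155 in shMaf1, 4.25-fold higher (3.97 to 4.54), and at 10.8 in shBrf1, 3.40-fold lower (2.98 to 3.89). Smoc1 and Tfpi2, which encode a matrix protein and a protease inhibitor, went the other way in shBrf1, 2.52-fold (2.07 to 3.09) and 2.97-fold (1.85 to 4.92) above control at day 2. Begain, which lies beside Dlk1, was 7.39-fold above control in shMaf1 at day 2 (4.02 to 14.8), on 88 and 12 counts.

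Among factors that set or keep imprints, Zfp57 and Tet1 were the genes past the size rule against control. Of 20 listed, 19 were measured and none passed at day 0. At day 2, 1 was higher in shMaf1 (Tet1), 2 were lower in shBrf1 (Zfp57 and Tet1) and 1 was lower in ML-60218 (Zfp57), where 8.05%, 8.61% and 4.88% of all genes were past it. Zfp57, a zinc finger protein that protects methylated imprint marks in the embryo, was at 74.0, 93.1, 59.8 and 70.9 CPM at day 0 and at 20.2, 39.4, 8.48 and 6.33 CPM at day 2 in control, shMaf1, shBrf1 and ML-60218. It was lower at day 2 in every condition, 3.67-fold in control (3.35 to 4.02), 2.36-fold in shMaf1 (2.21 to 2.53), 7.05-fold in shBrf1 (6.13 to 8.14) and 11.2-fold in ML-60218 (9.56 to 13.2). Tet1, which oxidises methylated cytosine, was at 3.17 CPM in control at day 2, 7.13 in shMaf1, 1.16 in shBrf1 and 1.87 in ML-60218. From day 0 to day 2, 1 of the 19 was higher and 4 lower in control, and 0 and 1 in shMaf1. In shBrf1 it was 3 and 2, and in ML-60218 1 and 3. Of all genes, 18.8%, 10.5%, 32% and 26.7% were past the size rule. Uhrf1, also on the list, was higher at day 2 in control (2.70-fold, 2.52 to 2.88), shBrf1 (3.12-fold, 2.91 to 3.34) and ML-60218 (2.52-fold, 2.34 to 2.71).

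Partners of Dlk1 and Igf2 were listed as well. One list held 15 genes, those of the Notch pathway together with Sox9, and 8 of them were measured. The 1 gene past the size rule against control was Notch3, 2.44-fold lower in shBrf1 at day 2 (2.13 to 2.80). In that comparison 8.61% of all genes were past the size rule. Among 14 receptors, binding proteins and adaptors linked to Igf2, of which 13 were measured, the 1 gene past the size rule at day 0 was Igfbp3, a binding protein, at 15.6 CPM in control and 59.9 in shMaf1, 3.83-fold higher (3.48 to 4.22). There 3.61% of all genes were past the size rule. At day 2 Igf1 and Igfbp3 were higher and Igfbp7 lower in shMaf1, Igf1r and Igfbp4 were lower in shBrf1, and Igf1 was lower in ML-60218. Those are 3, 2 and 1 of 13, where 8.05%, 8.61% and 4.88% of all genes were past the size rule. Igf1, the other ligand of the IGF1 receptor, was at 16.5 CPM in control, 65.0 in shMaf1, 13.5 with shBrf1 and 6.64 with ML-60218 at day 2. It was 3.94-fold above control in shMaf1 (3.57 to 4.36) and 2.48-fold below in ML-60218 (2.09 to 2.97).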

How the data were processed

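Poly(A) RNA libraries were made with a stranded kit, per the labels' protocols, and aligned with STAR 2.4 to mm10, per the submitters' processing notes. The authors deposited expected counts (estimated counts) per gene, not normalised, in 6 tables of 1 perturbed and 1 control library each, beside a log2 fold change that was used as an alternative. From the deposited quality tables came a column headed Skewness, read here as a 3′ bias score, the ERCC spike-in read count and the percent of ribosomal reads. The percent of ambiguous reads (44.35 to 49.98%) was taken by column position.

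Counts were scaled with TMM (edgeR 4.0.16, R 4.3.3) and given as CPM; Python 3.11.15 with pandas 2.3.3 and scipy 1.17.1 gave ratios and exact binomial (Clopper-Pearson) 95% intervals, which cover counting error only. The pseudocount was 0.5 CPM and the floor 1 CPM. No test and no deposited p-value was used, since each group holds 1 library. Scaling by library totals, by spike-in reads and by size factors (DESeq2 1.42.0) was tried instead, as were pseudocounts of 1 and 0.1 CPM, no floor, a floor of 5 CPM and the deposited log2 fold change. The calls were also run on simulated counts with set fold changes and counting error only, which says nothing about variation between cultures. The members, the lists and the tests were chosen with earlier results of these data known. Dlk1 and Igf2 were named in each comparison, then all genes past the size rule, then cluster neighbours, and at most 4 genes per list. Spans are the gene positions that the authors deposited with the counts (mm10). Exon lengths are from GENCODE M21 (GRCm38).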

Additional observations from a re-analysis of the deposited data

Results flagged for a closer look

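Peg3 and Igf2 moved in opposite directions with induction in different conditions. The log2 ratio of Peg3 at day 2 against day 0 was 1.19 in shMaf1 and -1.38 in shBrf1. The log2 ratio of Igf2 was 2.13 in shMaf1 and -1.16 in ML-60218. Each value compares 1 library with 1 library, and the difference between the conditions was not tested.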

How the results depend on the processing

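Of 76 recounts of imprinted genes past the size rule, 67 lay within 1.5 times the reported count. By spike-in scaling the count against control at day 0 became 3 for shBrf1 and 1 for ML-60218, and that of day 2 against day 0 became 13 in control and 22 in ML-60218. With a pseudocount of 0.1 CPM the day 0 counts of shBrf1 and ML-60218 became 4 and 1, and by the authors' deposited log2 fold change 4 and 2. A floor of 5 CPM left 8 for day 2 against day 0 in shBrf1. Of 340 recomputed log2 ratios of named genes, 268 moved by less than their counting interval. All 68 at each pseudocount, 1 and 0.1 CPM, are among these, and there the fold without pseudocount is unchanged. Where a library has 0 counts the interval has no upper end, so no such move can exceed it. Magel2 in control between the days, from 4.501 to 6.771 with 0.1 CPM, is such a case. Another 71 moved by more, of them 45 by spike-in scaling and 25 by library totals. The ratio of Kcnq1ot1 in shBrf1 from day 0 to day 2, past the size rule as reported, turned its sign to -0.112 by spike-in scaling. Among those that moved, Dlk1 in shMaf1 between the days, short of the rule, also turned its sign, from 0.1375 to -0.1984. The cause of these moves was not tested. The labels do not say in what proportion spike-in was added, so spike-in scaling cannot be read as RNA per cell.

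No paired analysis was possible because each group holds 1 library and no test was made. For the same reason no replicate was left out. Rian, Rtl1 and Usp29 rest on under 10 counts in at least 1 library, and intervals there span several-fold.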

Other observations

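Snurf shares a transcript with Snrpn and was looked at after the low counts of Snrpn were seen. Its row held 469 to 764 counts in the 8 libraries, 15.9 to 28.7 CPM, while that of Snrpn held 0 to 3.

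Per kilobase of annotated exon, the median level over the 8 libraries was 250.3 CPM for Dlk1, 79.9 for Igf2r, 77.4 for Gnas, 13.7 for Igf2, 7.91 for Peg3, 1.03 for Plagl1 and 1.01 for H19, and the lowest of the measured genes was Kcnq1ot1 at 0.0907. Igf2r and Gnas, and Plagl1 and H19, were close in this order. In shMaf1 at day 2 the order changed, with Igf2 at 95.6, above Igf2r at 79.4 and Gnas at 77.7 CPM per kilobase.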
